A study of Mus musculus with 18 samples.

Results

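The mRNAs of the TFEB family of transcription factors and of the folliculin complex were followed in RAW264.7 cells, an established mouse macrophage line. The members were chosen by gene symbol: the transcription factor genes Tfeb, Tfe3, Mitf and Tfec, and the genes of folliculin (Flcn) and its partners (Fnip1 and Fnip2). All 7 were found among the 11243 protein-coding genes counted. Control cells received vehicle, LPS cells received 500 ng/mL lipopolysaccharide (LPS), a bacterial ligand of toll-like receptor 4, for 6 h, and LPS+torin1 cells received 100 nM of the mTOR kinase inhibitor torin1 for 15 min before the same LPS treatment. Each treatment was made in 3 independent experiments, and the 9 lysates were each sequenced as total mRNA and as the mRNA of pooled heavy polysomes, which is bound by several ribosomes. No gene was deleted or overexpressed in these cells. Every torin1 library used here also had LPS, so torin1 without LPS was not compared.

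TFEB, TFE3, MITF and TFEC bind DNA as dimers with one another, and TFEB and TFE3 in particular raise the transcription of genes for lysosomal membrane proteins, the proton pump (V-ATPase), acid hydrolases and autophagy. In fed cells mTORC1 phosphorylates TFEB and TFE3 on the lysosome surface and this holds them in the cytosol. Folliculin, bound to FNIP1 or FNIP2, promotes GTP hydrolysis by the Rag GTPases RagC and RagD, which present TFEB and TFE3 to mTORC1. MITF is best known from melanocytes, mast cells and osteoclasts, and TFEC from cells of the macrophage lineage. The counts report mRNA, and neither the place nor the phosphorylation of these proteins can be read from them.

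The libraries held between 27800983 and 47725557 counts, and every gene of the table had at least 1 count in each library. The 7 mRNAs took between 0.0723% and 0.277% of the counts of a library. All 9 macrophage markers checked were counted (Adgre1, Cd68, Csf1r and others), none of the 9 markers of T cells, B cells and epithelial cells was, and the melanocyte marker Pmel did not exceed 0.357 CPM. Of the fibroblast markers checked, only Pdgfrb was counted, and it peaked at 1.72 CPM. Il1b, Tnf and Ptgs2, genes of the LPS response, summed to 286 to 368 CPM in total control libraries and 9515 to 12160 CPM with LPS. The response genes Il6 and Nos2 were not among the genes counted. Levels are given as CPM, counts relative to the library size after scaling by the TMM method within an RNA type, and changes as log2 fold changes from edgeR's quasi-likelihood test with Benjamini-Hochberg adjustment over all 11243 genes. A change was called at an adjusted p of at most 0.25, the threshold in the study's methods. A CPM in bulk RNA does not tell fewer expressing cells from less RNA per cell.

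In GRCm38 with the GENCODE annotation, Tfeb is at chr17:47737030-47792419, Tfe3 at chrX:7762560-7775202, Mitf at chr6:97807052-98021349 and Fnip1 at chr11:54438199-54518235, all on the plus strand. Tfec at chr6:16833373-16898441, Flcn at chr11:59791408-59810016 and Fnip2 at chr3:79455974-79567796 are on the minus strand. No other gene shared exon sequence with any of them in this annotation. RefSeq promoter windows of GRCm38.p6, from 250 bases before to 50 bases after an annotated start, were found for all 7 genes, 12 windows in all. They were searched on both strands for the E-box CACGTG, its extension TCACGTG that forms the core of the TFEB site in lysosomal promoters (the CLEAR element), the M-box TCATGTG bound by MITF, and the cyclic AMP response element (CRE) TGACGTCA. The E-box occurs in 7.15% of 32851 mouse windows of this kind, the CLEAR core in 3.77%, the M-box in 3.77% and the CRE in 1.79%, and every CLEAR core holds an E-box.

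Of the 12 windows, 3 held a searched motif, and these are shown with the motif in capitals. Fnip1 at chr11:54437929-54438228 (plus strand) holds an E-box that is also a CLEAR core read on the opposite strand, with its first base 75 bases before the start. Flcn at chr11:59809990-59810289 (minus strand) holds a CRE 49 bases before the start. Window 3 of Mitf, another annotated start at chr6:97991533-97991832 (plus strand), holds a CRE 153 bases before the start.
Fnip1: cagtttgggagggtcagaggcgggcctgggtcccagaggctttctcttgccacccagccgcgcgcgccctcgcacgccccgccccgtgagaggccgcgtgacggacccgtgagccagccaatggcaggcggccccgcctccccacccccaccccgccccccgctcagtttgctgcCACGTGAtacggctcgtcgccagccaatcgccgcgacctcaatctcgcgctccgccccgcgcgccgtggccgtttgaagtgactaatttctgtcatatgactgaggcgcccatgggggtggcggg
Flcn: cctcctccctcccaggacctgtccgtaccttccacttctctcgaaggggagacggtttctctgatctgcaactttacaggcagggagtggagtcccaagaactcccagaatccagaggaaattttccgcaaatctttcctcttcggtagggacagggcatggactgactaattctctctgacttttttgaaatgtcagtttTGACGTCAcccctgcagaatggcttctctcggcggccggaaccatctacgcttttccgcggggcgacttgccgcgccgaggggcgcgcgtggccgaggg
Mitf, window 3: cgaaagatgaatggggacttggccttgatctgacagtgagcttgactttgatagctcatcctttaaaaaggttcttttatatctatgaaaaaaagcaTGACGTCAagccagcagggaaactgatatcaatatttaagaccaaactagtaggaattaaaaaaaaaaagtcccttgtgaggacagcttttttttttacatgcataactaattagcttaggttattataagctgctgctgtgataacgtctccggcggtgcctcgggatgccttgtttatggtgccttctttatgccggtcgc
The windows of Tfeb, Tfe3, Tfec and Fnip2 held none of these letters, nor did the other windows of Mitf. Counts per gene do not tell which start site was used.

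In unstimulated cells, Fnip2 was the most abundant of the 7 mRNAs and Tfeb and Tfec were the least abundant. Per kilobase of annotated exon, the total mRNA level was 52.1 ± 22.4 CPM per kb for Fnip2 (SD, n = 3), 20.1 ± 1.61 for Mitf, 14.8 ± 2.94 for Fnip1, 10.4 ± 0.415 for Tfe3, 10.4 ± 1.50 for Flcn, 2.71 ± 0.494 for Tfeb and 2.42 ± 0.441 for Tfec. In this order of levels, the libraries of Tfe3 and Flcn overlapped, as did those of Tfeb and Tfec, and all other neighbours were separate. With LPS and torin1 the order of total mRNA levels per kb became Fnip2 (194 ± 29.9), Mitf (42.6 ± 7.22), Fnip1 (41.9 ± 4.15), Flcn (17.4 ± 1.26), Tfe3 (16.2 ± 0.313), Tfec (13.1 ± 0.891) and Tfeb (0.907 ± 0.133 CPM per kb). Tfec thus left the bottom of the order and Tfeb stayed there, while Mitf and Fnip1 overlapped, as did Flcn and Tfe3.

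**Figure D1:**
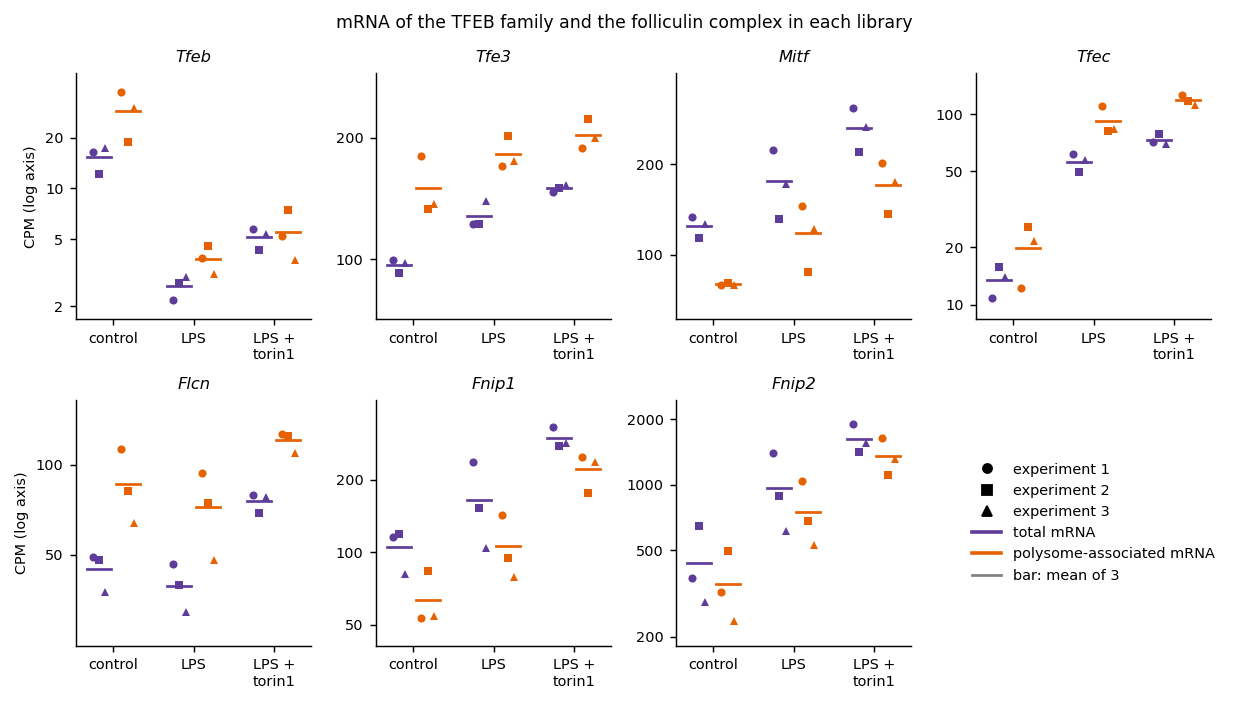
CPM (log axis, scaled by TMM within an RNA type) of each of the 7 mRNAs in each of the 18 libraries, by treatment, with total mRNA in purple and polysome-associated mRNA in orange. Symbols mark the 3 experiments and bars the mean of 3. Tfeb is low and Tfec high in every library with LPS, while for Fnip1 and Fnip2 the libraries spread widely within a treatment.

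LPS lowered the mRNA of one family member and raised the mRNAs of the others. Tfeb mRNA fell 5.82-fold and Tfec mRNA rose 4.14-fold in total mRNA, and Tfe3 and Mitf rose by less. In the folliculin complex Fnip1 and Fnip2 rose, and Flcn did not pass the test as fitted, but passed with the experiment as a block and with library totals in place of TMM. In total mRNA, 6 of the 7 members passed the test between LPS and control, 5 higher and 1 lower with LPS, where 66.5% of all genes passed, 32.2% higher and 34.3% lower. In polysome-associated mRNA, 6 of 7 passed as well, again 5 higher and 1 lower, where 55.1% of all genes passed, 26.4% higher and 28.7% lower. The libraries of the groups did not overlap for 3 of 7 members in total mRNA (53.9% of all genes) and for 4 of 7 in polysome-associated mRNA (46.2%). The median log2 fold change of the 7 mRNAs was 0.49 in total and 0.56 in polysome-associated mRNA, against −0.02 and −0.03 over all genes.

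These directions depend in part on the scaling. With library totals in place of TMM, the median change of all genes between LPS and control moved to −0.38 in both RNA types, and 2 members were higher (Tfec and Fnip2) and 2 lower (Tfeb and Flcn) in each RNA type. Of all genes, 15.3% were then higher and 62% lower in total mRNA, and 13.7% higher and 54.3% lower in polysome-associated mRNA. Tfe3, Mitf and Fnip1 then no longer passed, and Tfe3 in polysome-associated mRNA turned from 0.28 to −0.07 on the log2 scale. The changes that follow are relative to the bulk of the mRNAs, as TMM sets it.

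Tfeb, the family member best known as a regulator of lysosome genes, fell in every experiment. Its total mRNA stood at 16.5, 12.2 and 17.5 CPM in the control libraries of experiments 1 to 3 and at 2.17, 2.73 and 2.99 CPM with LPS. The lowest control library was thus above the highest LPS library by a wide margin. This was a log2 fold change of −2.54 (SE 0.20, adjusted p = 6.88e-06, edgeR), a 5.82-fold lower level, and only 49 of the 11243 genes fell by more. In polysome-associated mRNA, Tfeb stood at 37.2, 18.9 and 29.9 CPM in control libraries and at 3.84, 4.53 and 3.11 CPM with LPS, a log2 fold change of −2.90 (SE 0.32, adjusted p = 8.70e-05). Here 28 genes fell by more. The LPS values of Tfeb in total mRNA rest on 61 to 97 counts per library.

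Tfec, a family member of restricted expression, moved the opposite way and its groups did not overlap either. Total mRNA of Tfec rose from 10.9, 15.8 and 14.02 CPM in control libraries to 61.7, 49.4 and 57.7 CPM with LPS, a log2 fold change of 2.05 (SE 0.15, adjusted p = 3.38e-06). In polysome-associated mRNA it rose from 12.3, 25.5 and 21.5 to 110.0, 82.0 and 83.3 CPM, a log2 fold change of 2.21 (SE 0.25, adjusted p = 9.77e-05). Experiment 1 had the lowest control level and the highest LPS level of Tfec in both RNA types. In total mRNA, 387 genes rose by more than Tfec.

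Tfe3, the close relative of Tfeb, rose in total mRNA from 99.6, 92.3 and 98.2 to 122, 122 and 140 CPM, and the groups did not overlap. The log2 fold change was 0.41 (SE 0.09, adjusted p = 0.00479), a 1.32-fold higher level. Its polysome-associated mRNA went from 181, 133 and 137 to 170, 202 and 175 CPM, so that the groups overlapped and experiment 1 went the other way. That change, 0.28 (SE 0.16, adjusted p = 0.214), was 0.12 without experiment 2 (adjusted p = 0.592), 0.25 without experiment 3 (adjusted p = 0.551) and 0.48 without experiment 1 (adjusted p = 0.154).

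Mitf total mRNA was 133, 114 and 126 CPM in control libraries and 223, 131.3 and 171 CPM with LPS. It rose within each experiment, least in experiment 2, and the LPS library of that experiment lay below the highest control library. The log2 fold change was 0.49 in total mRNA (SE 0.19, adjusted p = 0.0519) and 0.56 in polysome-associated mRNA (SE 0.20, adjusted p = 0.0533), where the control libraries lay between 79.3 and 80.6 CPM and the LPS libraries between 87.3 and 145 CPM. The latter call was lost without experiment 1 (0.39, adjusted p = 0.345) or experiment 3 (0.54, adjusted p = 0.275).

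Fnip2 and Fnip1, the alternative partners of folliculin, rose in each experiment by unequal amounts. Fnip2 total mRNA was 373, 646 and 288 CPM in control libraries and 1398, 884 and 613 CPM with LPS. The control library of experiment 2 was above the LPS library of experiment 3, so the groups overlapped, although within experiments Fnip2 rose by 1.90, 0.45 and 1.09 on the log2 scale. Over the 3 experiments the log2 fold change of Fnip2 was 1.15 in total mRNA (SE 0.33, adjusted p = 0.0161) and 1.10 in polysome-associated mRNA (SE 0.31, adjusted p = 0.0202). Without experiment 1 the total change was 0.69 (adjusted p = 0.178) and the polysome-associated change 0.72 (adjusted p = 0.248). Fnip1 total mRNA went from 116, 119.5 and 81.4 to 238, 153 and 104 CPM. Its log2 fold change was 0.65 in total mRNA (SE 0.26, adjusted p = 0.0632) and 0.74 in polysome-associated mRNA (SE 0.26, adjusted p = 0.0481). Both calls of Fnip1 rest on experiment 1, without which the changes were 0.37 (adjusted p = 0.251) and 0.34 (adjusted p = 0.486).

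Flcn, the subunit that gives the complex its name, differed little between LPS and control. Its total mRNA was 49.2, 47.98 and 37.4 CPM in control libraries and 46.3, 39.4 and 32.2 CPM with LPS. The groups overlapped, but each LPS library was below the control library of its own experiment. The log2 fold change was −0.19 (SE 0.15, adjusted p = 0.317) and −0.26 in polysome-associated mRNA (SE 0.26, adjusted p = 0.473). With the experiment as a block the same changes had adjusted p = 0.179 and 0.196 and passed the threshold. Of all genes, 73.1% and 62.8% passed with the block, against 66.5% and 55.1% without it.

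Adding torin1 to LPS raised all 7 mRNAs relative to LPS alone in total mRNA. Tfeb and Flcn rose most, by 1.95-fold and 1.91-fold, and Tfe3 least. In total mRNA, 7 of 7 members passed the test and all were higher with torin1, where 53.7% of all genes passed and 27.3% were higher. In polysome-associated mRNA, 4 of 7 passed, all higher, namely Mitf, Flcn, Fnip1 and Fnip2, where 38.4% of all genes passed and 20.3% were higher. The groups did not overlap for 6 of 7 members in total mRNA (42% of all genes) and for 4 of 7 in polysome-associated mRNA (32.8%). The median log2 fold change of the 7 mRNAs was 0.75 in total and 0.53 in polysome-associated mRNA, against 0.00 over all genes in both. The comparison uses the same LPS libraries as the comparison of LPS with control, so the size of one is not independent of the other.

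In the LPS+torin1 libraries, total Flcn mRNA reached 78.9, 69.0 and 77.8 CPM, all above each of the control and LPS libraries. Relative to LPS it rose by 0.94 on the log2 scale (SE 0.15, adjusted p = 0.00164). Polysome-associated Flcn mRNA reached 127, 124.99 and 109 CPM, above all LPS libraries (48.1 to 93.7 CPM), with a log2 fold change of 0.74 (SE 0.26, adjusted p = 0.0802).

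Tfeb total mRNA reached 5.76, 4.30 and 5.37 CPM with torin1, above every LPS library and below every control library. The log2 fold change against LPS was 0.96 (SE 0.20, adjusted p = 0.00648). In polysome-associated mRNA the torin1 libraries held 5.25, 7.49 and 3.76 CPM and overlapped the LPS libraries, and the change of 0.52 (SE 0.31, adjusted p = 0.283) did not pass. In one model over all 18 libraries that change was 0.50 and passed (adjusted p = 0.186).

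Fnip1 total mRNA reached 332, 278 and 285 CPM with torin1 and lay above all LPS libraries, with a log2 fold change of 0.85 (SE 0.26, adjusted p = 0.0320). Of the 7 members it had the largest polysome-associated change, 1.07 (SE 0.26, adjusted p = 0.0217), from between 79.3 and 144 CPM with LPS to 250, 177 and 238 CPM. Fnip2 total mRNA reached 1899, 1415 and 1552 CPM, just above the highest LPS library (1398 CPM). Its log2 fold change was 0.75 in total mRNA (SE 0.33, adjusted p = 0.113) and 0.86 in polysome-associated mRNA (SE 0.31, adjusted p = 0.0920). Both Fnip mRNAs rose least in experiment 1, where LPS alone had raised them most, and most in experiment 3, and without experiment 3 the total change of Fnip2 did not pass (0.54, adjusted p = 0.335).

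Mitf total mRNA reached 308, 218 and 265 CPM, and rose within every experiment over LPS although the libraries overlapped, with a log2 fold change of 0.59 (SE 0.19, adjusted p = 0.0375). Its polysome-associated change was 0.53 (SE 0.20, adjusted p = 0.105), and 0.57 without experiment 1, which did not pass (adjusted p = 0.264). Tfec reached 71.5, 78.9 and 69.4 CPM, above the LPS libraries, with a log2 fold change of 0.38 (SE 0.14, adjusted p = 0.0613). That call was lost without experiment 2 (0.24, adjusted p = 0.269), and the polysome-associated change of Tfec, 0.37 (SE 0.24, adjusted p = 0.334), did not pass except without experiment 1 or in one model over all libraries. Tfe3 reached 147, 150 and 153 CPM, with the smallest change of the family, 0.23 (SE 0.09, adjusted p = 0.0870), which was lost without experiment 1 (adjusted p = 0.2513) or experiment 2 (adjusted p = 0.288). The polysome-associated change of Tfe3 was 0.16 (SE 0.16, adjusted p = 0.553).

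The 4 polysome-associated calls with torin1 were lost when experiment 3 was left out. Without it, 0 of the 7 members passed in edgeR's test (2 at an unadjusted p under 0.05), with changes of 0.55 for Mitf, 0.60 for Flcn, 0.85 for Fnip1 and 0.70 for Fnip2 and adjusted p-values of 0.436, 0.283, 0.254 and 0.375. Over all genes, 1187 passed without experiment 3, against 4322 with all experiments.

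**Figure D2:**
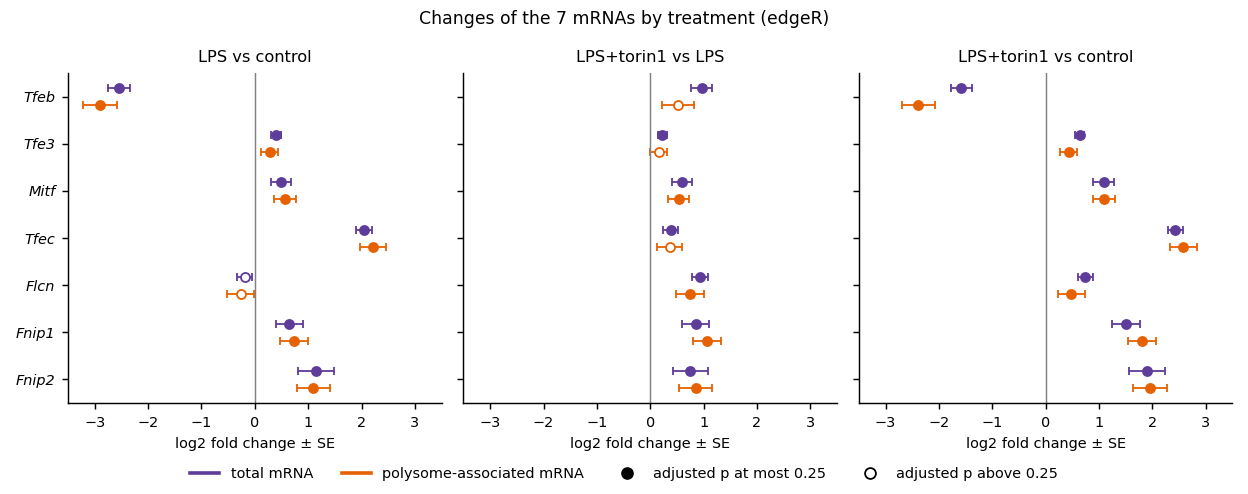
Log2 fold change with its standard error (x axis) of each of the 7 mRNAs (y axis) in the 3 comparisons of treatments, with total mRNA in purple, polysome-associated mRNA in orange, and filled points for an adjusted p of at most 0.25. Under TMM scaling, Tfeb lies at −2.54 and −2.90 for LPS against control and at −1.58 and −2.38 for LPS+torin1 against control, and no point lies below 0 for LPS+torin1 against LPS. With library totals, polysome-associated Tfe3 in the left panel turns to −0.07.

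Against the control, all 7 members passed the test in both RNA types in cells given LPS and torin1, 6 higher and only Tfeb lower, where the share of all genes that passed was 66.7% in total mRNA, with 33.1% higher and 33.6% lower. In polysome-associated mRNA that share was 58.2%, with 28.5% higher and 29.7% lower. The groups did not overlap for 7 of 7 members in total mRNA (61.2% of all genes) and for 6 of 7, all but Flcn, in polysome-associated mRNA (46.8%). Tfeb did not return to its control level. Its total mRNA stayed below the control by a log2 fold change of −1.58 (SE 0.19, adjusted p = 9.68e-05) and its polysome-associated mRNA by −2.38 (SE 0.31, adjusted p = 0.000227). Tfec (2.43, SE 0.15, adjusted p = 1.02e-06), Fnip2 (1.90, SE 0.34, adjusted p = 0.00104) and Fnip1 (1.50, SE 0.26, adjusted p = 0.000951) were furthest above the control in total mRNA. Flcn was above the control by 0.75 in total mRNA (SE 0.15, adjusted p = 0.00205) and by 0.48 in polysome-associated mRNA (SE 0.26, adjusted p = 0.169). The latter was lost without experiment 2 (adjusted p = 0.327) or experiment 3 (adjusted p = 0.329), and the polysome-associated rise of Tfe3 (0.43, SE 0.16, adjusted p = 0.0561) without experiment 3 (adjusted p = 0.312). Without experiment 2 that rise of Tfe3 was 0.29 (adjusted p = 0.184). Neither passed with library totals.

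The makeup of the family changed with these shifts. Per kilobase, Mitf and Tfe3 made up most of the total mRNA of the 4 factors in every treatment, Mitf with 56.3% ± 1.52 in control libraries, 53.2% ± 5.63 with LPS and 58.2% ± 4.78 after LPS and torin1 (SD, n = 3), and Tfe3 with 29.3% ± 0.558, 26.7% ± 4.41 and 22.4% ± 2.25. Tfeb held 7.58% ± 1.01 of the control total, 0.906% ± 0.245 with LPS and 1.24% ± 0.0862 with LPS and torin1. Tfec held 6.86% ± 1.61, 19.2% ± 1.00 and 18.1% ± 2.74 of the total in the same order. So Tfeb and Tfec had like shares in control libraries (6.47 to 8.45% and 5.25 to 8.47%), and with LPS the lowest share of Tfec (18.2%) was far above the highest share of Tfeb (1.10%). In polysome-associated mRNA, Tfeb went from 13.3% ± 3.39 to 1.22% ± 0.292 and 1.37% ± 0.514, and Tfec from 9.57% ± 3.85 to 29.3% ± 2.12 and 29.5% ± 1.17. The summed level of the 4 factors in total mRNA was 35.7 ± 2.07 CPM per kb in control libraries, 52.6 ± 8.47 with LPS and 72.8 ± 6.51 with LPS and torin1. The library ranges of these sums, 33.3 to 37.1, 43.7 to 60.6 and 66.4 to 79.4 CPM per kb, did not overlap. Shares and sums are given as a description, without a test.

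**Figure D3:**
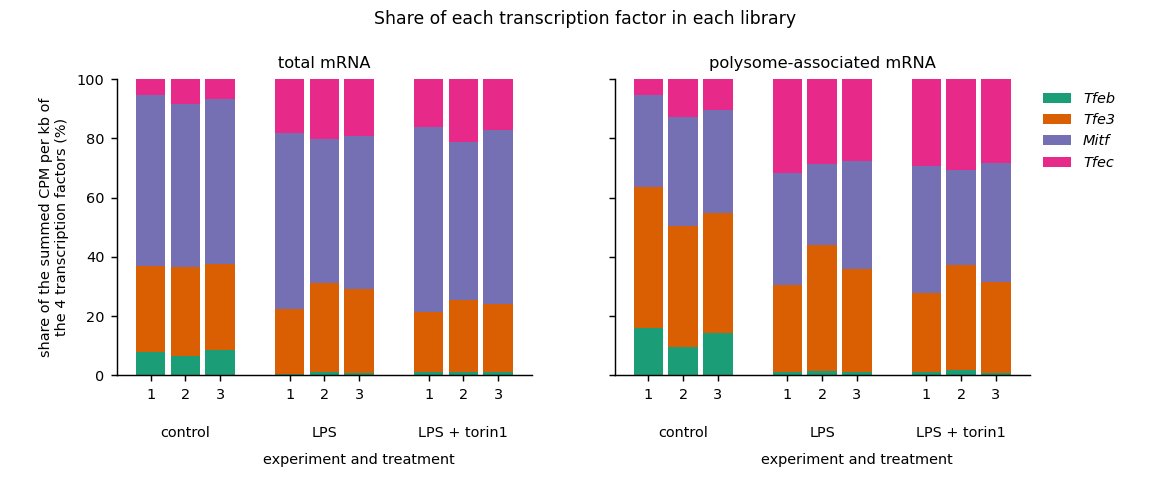
Share (%) of Tfeb, Tfe3, Mitf and Tfec in the summed CPM per kb of the 4 transcription factors (y axis) in each library, by experiment and treatment (x axis), with total mRNA on the left and polysome-associated mRNA on the right. The share of Tfeb shrinks from 7.58% to 0.906% on average with LPS in total mRNA, and that of Tfec grows from 6.86% to 19.2%.

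Fnip2 exceeded Fnip1 per kilobase in all 18 libraries. The ratio of Fnip2 to Fnip1 in total mRNA was 3.46 ± 1.00 in control libraries (SD, n = 3, from 2.75 to 4.60), 4.97 ± 0.0521 in LPS libraries and 4.61 ± 0.269 with LPS and torin1. The spread of the ratio in LPS libraries, 4.91 to 5.00, was found where Fnip2 itself ranged from 613 to 1398 CPM there. Across the 18 libraries the log2 CPM of Fnip1 and Fnip2 had a Pearson correlation of 0.94, that of Mitf and Fnip1 of 0.90, and that of Tfeb and Tfec of −0.80. These correlations are over libraries that share lysates and treatments and are given as a description.

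The members differed in their level in heavy polysome libraries relative to total mRNA libraries. This ratio is relative to the bulk of the mRNAs, and the scaling sets its 0. It does not give the fraction of an mRNA that is on polysomes. The log2 ratio of polysome-associated to total CPM (TMM over all 18 libraries) was above 0 in 9 of 9 lysates for Tfe3, Tfec and Flcn, and below 0 in 9 of 9 for Mitf, Fnip1 and Fnip2. Flcn had the highest mean ratio of the 7, 0.80, above that of 91.4% of all genes. Mitf, with −0.62, and Fnip1, with −0.60, exceeded only 14.8% and 15.5% of genes. The remaining means were 0.62 for Tfec (83.1% of genes lower), 0.52 for Tfe3 (78.0%), 0.48 for Tfeb (76.0%) and −0.31 for Fnip2 (30.001%). The ratio of Mitf stayed between −0.75 and −0.48 over the 9 lysates. Tfeb was the least even: its ratio was 1.17, 0.64 and 0.78 in control lysates, 0.83, 0.71 and 0.07 with LPS and −0.14, 0.76 and −0.52 with LPS and torin1.

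Translation efficiency, the change in polysome-associated mRNA beyond the change in total mRNA, was read from the interaction term between treatment and RNA type. No member and no other gene passed in edgeR's test between LPS and control or between LPS+torin1 and LPS (0 of 11243, 0%). At an unadjusted p under 0.05 the test gave 44 genes (0.391%) and 110 genes (0.978%), with 0 of the 7 members in either. Both shares are below the fraction of 0.05 that unchanged genes would give. The model took the total and polysome libraries of a lysate as independent. The absence of passing genes therefore does not show that translation efficiency was unchanged. With another method, anota2seq, the study reported a subset of mRNAs with changed translation efficiency after LPS. Of lysosomal mRNAs it named a few, among them Lamp2, M6pr and Cln3. The reason for this difference was not tested. DESeq2 called 1 and 7 genes, an analysis of partial variance 13 and 24, and edgeR with the lysate as a block 0 and 25, again with 0 of the members. The estimates for Tfeb were −0.36 (SE 0.37) with LPS and −0.47 (SE 0.38) with torin1. For Tfec they were 0.16 (SE 0.29) and −0.04 (SE 0.29), for Flcn −0.07 (SE 0.31) and −0.22 (SE 0.31), and for Fnip1 0.09 (SE 0.39) and 0.19 (SE 0.39). Tfe3, Mitf and Fnip2 lay between −0.13 and 0.09 in both comparisons. Partial variance gave estimates far from these for Tfeb (−2.54 with LPS and 0.33 with torin1) and Tfec (−1.11 and −0.28), with adjusted p-values from 0.856 to 0.973. The standard errors of the interaction were 0.17 to 0.49 for the 7 members. Changes further than 1 standard error from an estimate are not excluded by them. The partial variance values with LPS, −2.54 for Tfeb and −1.11 for Tfec, lie further than that from the interaction estimates of −0.36 and 0.16. The reason for this gap between the methods was not tested.

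**Figure D4:**
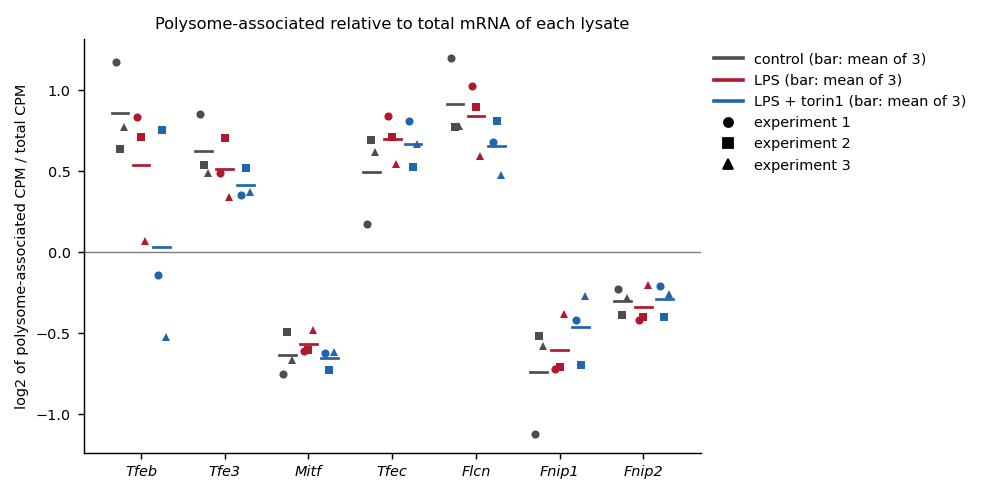
Log2 ratio of polysome-associated to total CPM (y axis) for each of the 7 mRNAs (x axis) in each of the 9 lysates, colored by treatment, with symbols for the experiments and bars for the mean of 3. Tfe3, Tfec and Flcn lie above 0 and Mitf, Fnip1 and Fnip2 below 0 in every lysate.

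The lysosome expansion that the study measured in LPS-treated cells by microscopy and immunoblotting has no value in these libraries. In RAW cells deleted for Tfeb, Tfe3 or both, the study found expansion comparable to that of undeleted cells. It measured this after a shorter LPS treatment than that of these libraries, and restricts its conclusion to early expansion. In primary macrophages it saw TFEB and TFE3 enter the nucleus only at the later time, that of these libraries. The study also found that torin1 prevented the expansion and the rise of lysosomal proteins in those macrophages. The mRNAs of the proteins it followed were counted here. Those proteins were blotted mainly in primary macrophages, where all but cathepsin D rose with LPS. By qRT-PCR in primary macrophages, the study saw no rise of 6 of these mRNAs by 6 h of LPS. In the RAW264.7 libraries, 6 of the 7 mRNAs of those proteins were higher with LPS in total mRNA, and 5 were higher with torin1 than with LPS alone. Of all genes, 32.2% were higher with LPS and 27.3% with torin1. The calcium channel gene Mcoln1, a well-known TFEB target, had a level of 29.9 ± 0.754 CPM in control libraries, 28.4 ± 3.51 with LPS and 52.3 ± 2.78 after LPS and torin1 (SD, n = 3). Its log2 fold change was −0.07 with LPS (SE 0.11, adjusted p = 0.604) and 0.88 with torin1 against LPS (SE 0.11, adjusted p = 0.000414). The protease gene Ctsd changed by 0.34 with LPS (SE 0.17, adjusted p = 0.140) and by 1.03 with torin1 (SE 0.18, adjusted p = 0.00228), and the membrane protein gene Lamp1 by 0.18 (SE 0.09, adjusted p = 0.118) and 0.42 (SE 0.09, adjusted p = 0.00706). The V-ATPase genes Atp6v1h and Atp6v1d rose with LPS by 0.59 (adjusted p = 0.00260) and 0.54 (adjusted p = 0.0111), and with torin1 Atp6v1d rose by a further 0.46 (adjusted p = 0.0370) while Atp6v1h had a change of 0.01 (adjusted p = 0.949). Lamp2 changed by 0.61 and 0.12 and Cd63 by 0.55 and 0.29, of which the 0.12 did not pass (adjusted p = 0.479). With library totals, 3 of the 7 were higher and 2 lower with LPS (15.3% and 62% of all genes). Without experiment 3, 3 of the 7 were higher with torin1 (18.4% of all genes).

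A wider list of 61 known TFEB targets, of which 58 were counted outside the members, was followed in the same comparisons. With torin1 against LPS, 47 targets were higher and 2 lower in total mRNA, with a median log2 fold change of 0.44. In polysome-associated mRNA, 38 were higher and 3 lower. Of all genes, 27.3% were higher and 26.4% lower in total mRNA, and 20.3% and 18.2% in polysome-associated mRNA. Without experiment 3 these counts were 33 and 2 (18.4% and 16.8% of all genes), and 15 and 0 (6.31% and 4.25%). Without experiment 1 the polysome-associated counts were 21 and 0 (9.27% and 6.58%). Between LPS and control, 24 were higher and 11 lower in total mRNA, with a median of 0.09, and with library totals 7 were higher and 35 lower. Of all genes, 32.2% were higher and 34.3% lower, and with library totals 15.3% and 62%. Without experiment 3, 17 targets were higher and 6 lower (27% and 28.5% of all genes). The study's list of genes of the KEGG lysosome pathway, 31 of them shared with the targets, had 62 higher and 17 lower with torin1 and 44 higher and 31 lower with LPS (22 and 65 with library totals). The shares of all genes in total mRNA given above apply to these counts as well. The study gave that list for these same samples, and it is no independent evidence of a direction.

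Of the 21 hydrolases, 17 were higher and 0 lower with torin1, and 3 were higher and 6 lower with LPS (0 and 17 with library totals). Among the 15 V-ATPase subunit genes, 13 were higher with torin1, and 11 were higher and 0 lower with LPS (4 and 5 with library totals). Of 14 autophagy genes, 10 were higher and 1 lower with torin1, and 5 were higher and 5 lower with LPS (1 and 10 with library totals). Of all genes, 27.3% were higher and 26.4% lower with torin1. With LPS, 32.2% of all genes were higher and 34.3% lower (15.3% and 62% with library totals). The steepest rises with LPS were those of the autophagy receptor gene Sqstm1, 1.63 (SE 0.17, adjusted p = 3.87e-05), and the V-ATPase gene Atp6v0a1, 1.40 (SE 0.18, adjusted p = 0.000127), and both rose further with torin1, by 0.92 and 0.95 (adjusted p = 0.00329 and 0.00344). The hydrolase gene Sgsh fell most with LPS, from 20.9 ± 3.52 to 4.69 ± 1.55 CPM (−2.15, SE 0.26, adjusted p = 8.99e-05), and rose with torin1 to 11.7 ± 2.98 CPM (1.31, SE 0.26, adjusted p = 0.00456). The autophagy gene Atg9b fell with LPS by 1.48 on the log2 scale (SE 0.15, adjusted p = 3.67e-05) and changed by −0.16 with torin1 (adjusted p = 0.465). The steepest rises with torin1 were those of Atp6v0d2, from 5.03 ± 1.74 to 20.5 ± 7.65 CPM (2.02, SE 0.46, adjusted p = 0.00916), and Wipi1, from 0.364 ± 0.0259 to 1.20 ± 0.210 CPM (1.71, SE 0.29, adjusted p = 0.00231). Hif1a was lower with torin1 (−0.50, SE 0.12, adjusted p = 0.0134), as was Uvrag (−0.34, SE 0.17, adjusted p = 0.170). In the lysosomal list, the protease gene Ctsc rose most with LPS (2.47, SE 0.21, adjusted p = 1.02e-05) and fell most with torin1 (−1.74, SE 0.20, adjusted p = 0.000333).

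The summed level of the osteoclast markers counted was higher with LPS, and higher again with LPS and torin1. Of 5 osteoclast markers, 3 were counted (Acp5, Ctsk and Ocstamp), with a summed level of 7.14 to 8.35 CPM in total control libraries, 9.70 to 15.7 with LPS and 30.1 to 46.8 with LPS and torin1. The markers Calcr and Oscar were not in the table. A sum does not tell how each of the 3 markers changed. The part of these markers in the changes of Mitf, Tfec or the targets was not tested.

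Among the regulators of TFEB outside the folliculin complex, 3 of the Rag GTPase genes were counted. Rragc, which encodes RagC, a GTPase on which folliculin acts, rose from 121 ± 12.5 to 192 ± 33.0 CPM with LPS and to 296 ± 15.1 CPM with LPS and torin1 (SD over 3 libraries), with log2 fold changes of 0.66 (SE 0.14, adjusted p = 0.00281) and 0.63 (SE 0.14, adjusted p = 0.00762). Rragb, whose product pairs with RagC or RagD, fell with LPS by 1.10 on the log2 scale (SE 0.17, adjusted p = 0.000446) and rose with torin1 by 0.63 (SE 0.17, adjusted p = 0.0195). Rraga rose with LPS by 0.51 (SE 0.14, adjusted p = 0.0136) and changed by 0.07 with torin1 (adjusted p = 0.755). Rragd was not in the table.

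Of 36 regulators counted, 10 were higher and 11 lower with LPS in total mRNA (median −0.07), near the 32.2% and 34.3% of all genes. With torin1 against LPS, 11 were higher and 6 lower (median 0.10), where 27.3% and 26.4% of all genes were. With library totals these counts were 3 and 26 (15.3% and 62% of all genes), and 13 and 3 (31.9% and 20.8%). Without experiment 3, the counts with torin1 were 8 and 2 (18.4% and 16.8% of all genes). In polysome-associated mRNA, 10 were higher and 8 lower with LPS (26.4% and 28.7% of all genes), and 5 and 0 with torin1 (20.3% and 18.2%). The genes of the 14-3-3 proteins, which bind phosphorylated TFEB in the cytosol, had 4 of 6 higher with LPS in total mRNA (2 higher and 2 lower with library totals). With torin1, 5 of 6 were lower in total mRNA (3 of 6 with library totals). In polysome-associated mRNA, 5 of the 6 were higher with LPS and 0 passed with torin1. In total mRNA, Ywhag and Ywhaz fell with torin1 by 0.37 (SE 0.14, adjusted p = 0.0689) and by 0.31 (SE 0.09, adjusted p = 0.0273) on the log2 scale. Among the genes of mTORC1 itself, 2 of 6 were higher and 2 lower with LPS (0 and 4 with library totals), and Deptor, an inhibitory subunit, fell with LPS by 1.60 on the log2 scale (SE 0.17, adjusted p = 3.68e-05). Map4k3, a kinase that responds to amino acids, rose most of the list with torin1 (0.89, SE 0.17, adjusted p = 0.00472).

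**Figure D5:**
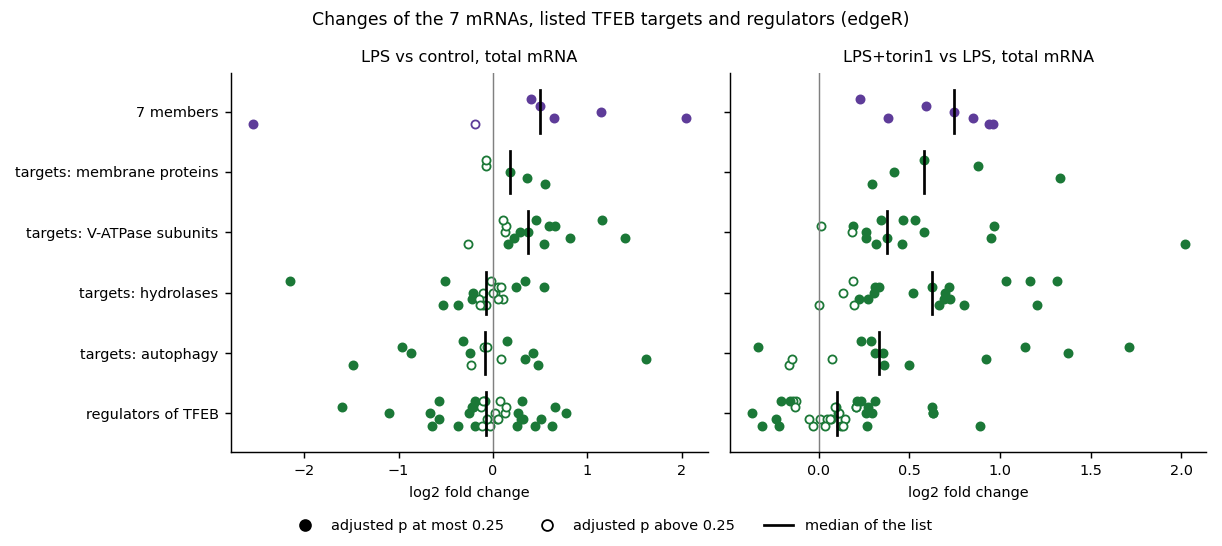
Log2 fold changes in total mRNA (x axis, TMM scaling) of the 7 members, the TFEB targets by group and the regulators of TFEB, with LPS against control on the left and LPS+torin1 against LPS on the right. Each point is a gene, filled for an adjusted p of at most 0.25, and lines mark medians. With torin1 17 of 21 hydrolases were higher, and with LPS 3 were higher and 6 lower (0 and 17 with library totals). Of all genes, 27.3% were higher with torin1, and with LPS 32.2% were higher and 34.3% lower (15.3% and 62% with library totals).

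The genes whose log2 CPM followed each member most closely over the 18 libraries were, by Pearson correlation, Plekhg5 and Amigo1 for Tfeb (both 0.98), Rgp1 and Efhd2 for Tfe3 (both 0.97), Ino80d (0.97) and Ddhd1 (0.96) for Mitf, and Clec4d (0.99) and Src (0.98) for Tfec. For the folliculin complex they were Echs1 and Bloc1s3 for Flcn (both 0.95), AW549877 (0.99) and Zfp655 (0.98) for Fnip1, and Mdfic (0.97) and Atg12 (0.96) for Fnip2. The libraries share lysates, treatments and RNA types, and the correlations are a description. Amigo1, for example, fell with LPS from 16.5 ± 2.26 to 3.10 ± 0.859 CPM and stood at 5.20 ± 0.456 CPM with LPS and torin1, a course close to that of Tfeb. Src rose with LPS by 4.93 on the log2 scale (SE 0.24, adjusted p = 4.33e-07), more than Tfec, and by a further 0.98 with torin1 (SE 0.20, adjusted p = 0.00575).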

How the data were processed

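Total mRNA and polysome-associated mRNA of 9 lysates were measured in 18 libraries. The authors made stranded paired-end libraries after removal of ribosomal RNA, ran the nextflow RNAseq pipeline (version 1.3, default settings, with Hisat2 to GRCm38 and featureCounts on Ensembl genes) and left out genes that were not protein-coding or had 0 reads in any library. The deposited file holds raw counts that were neither normalized nor pooled. Versions of Hisat2 and the annotation and the strand setting are not given in the sources used here.

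Counts were scaled by TMM and tested with the quasi-likelihood test of edgeR 4.0.16 in R 4.3.3, with the 9 libraries of an RNA type fitted jointly, Benjamini-Hochberg adjustment over 11243 genes and an FDR of 0.25. Translation efficiency was the interaction over 18 libraries, since anota2seq was not used here. Exon lengths and positions came from GENCODE M21 and promoter windows from RefSeq. Libraries of one experiment deviated together in total mRNA, with correlations of 0.149 to 0.412 in 9 of 9 pairs, and in polysome-associated mRNA over 0.1 in 5 of 9 pairs (−0.0886 to 0.724). The experiment number and the shared lysates therefore pair the libraries, and the block was an alternative. Further alternatives were DESeq2 1.42.0, median-of-ratios size factors, at least 10 counts in every library, an FDR of 0.05, each experiment left out, one model over all libraries, partial variance with limma 3.58.1 and, chosen after seeing the data, library totals. Tests were checked on simulated counts.

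The 7 members and all lists were chosen with earlier results of these data known. The lists of TFEB targets and regulators were written from general knowledge, and the KEGG lysosome list is that of the study. Named genes are the members, the 7 mRNAs of proteins the study followed, the Rag GTPases, the genes most correlated with each member, and from each list those with the largest called rises and falls in total mRNA that went one way in all experiments. Of the last, those from the lysosome list other than Ctsc are not printed. The independent experiments are described as such by the study. The p-values of the main fits take the libraries of a treatment as unpaired. They measure the spread of libraries within a treatment, which includes differences in level between experiments.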

Additional observations from a re-analysis of the deposited data

How the results depend on the processing

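Over 56 results of single members (7 members in 8 comparisons), the alternatives gave 501 values with the same direction and call, 37 that no longer passed, 8 that newly passed and 14 with the opposite sign. The counts of members changed stayed within 1.5 times of the reported ones except as follows. At an FDR of 0.05, 4 members passed with torin1 against LPS among total mRNAs (29.2% of all genes) and 1 among polysome-associated mRNAs (13.8%). Leaving out one experiment gave 0 to 4 in the latter (10.6% to 46.1% of all genes), where one model over all libraries gave 6 (48%). The cause was not tested. With the experiment as a replicate block, Flcn with LPS newly passed in both RNA types (7 of 7 members each), and no other call of a member changed. The block also let more of all genes pass with LPS, 73.1% (total) and 62.8% (polysome-associated), against 66.5% and 55.1% as fitted. With library totals, polysome-associated Tfe3 with LPS turned to −0.074. The other sign changes were of translation efficiencies that had not passed. By partial variance they were 0.33 for Tfeb and 0.033 for Tfe3 with torin1, and with LPS 0.11 for Tfe3, −1.11 for Tfec, 0.036 for Flcn and 0.080 for Fnip2. Leaving out one experiment gave −0.054 to 0.28 for Tfec, −0.043 to 0.26 for Fnip1 and −0.098 to 0.021 for Fnip2 with LPS, and −0.12 to 0.036 for Tfec with torin1. The last was 0.012 with DESeq2 and with median-of-ratios size factors. Depth limits Tfeb, with 61 counts in its lowest library.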
